A study of Mus musculus with 76 samples.

Results

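The *Cdkn2a* locus genes are *Cdkn2a*, *Cdkn2b* and *Mtap*, 3 neighbouring genes of mouse chromosome 4 that were chosen by name among the 55536 genes counted in this study. Together they span 173918 bases. *Cdkn2a* encodes 2 unrelated proteins from different first exons: p16Ink4a, which inhibits the cyclin D kinases CDK4 and CDK6 and so keeps the retinoblastoma protein active, and p19Arf, which binds MDM2 and so stabilizes p53. *Cdkn2b* encodes p15Ink4b, a second INK4 inhibitor that responds to TGF-beta, and *Mtap* encodes methylthioadenosine phosphorylase, which recycles the methylthioadenosine left by polyamine synthesis into methionine. The locus is among the most often deleted in human and mouse tumors, *Mtap* is frequently lost along with it, and cells that lack MTAP accumulate methylthioadenosine, which inhibits the arginine methyltransferase PRMT5. The question put to these counts was which of the 3 genes were near-absent in which tumor line, and whether catalase changed any of them.

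RNA was sequenced from 38 whole subcutaneous tumors grown in Balb/c mice, each as 2 technical libraries, by a method that reads the 3′ ends of transcripts. CT26 is a colorectal carcinoma line and 4T1 a mammary carcinoma line, both from Balb/c mice. All tumors received 100 μg alum into the tumor on day 6 and were taken on day 8, per the labels. The study's methods number these days differently, and the labels were followed. The CT26 CAT-ABP + alum (n = 6) and CT26 alum (n = 5) tumors grew from 1e6 untransduced cells, and the first of these groups also received 20 μg CAT-ABP, which is catalase carrying an alum-binding peptide. The 4T1 CAT-ABP + alum (n = 6) and 4T1 alum (n = 5) tumors grew from 5e5 untransduced cells and were treated likewise. The 4T1-CAT CAT-ABP + alum (n = 5) and 4T1-CAT alum (n = 5) tumors grew from 5e5 4T1 cells transduced with lentivirus for doxycycline-inducible catalase and GFP. The 4T1-control alum (n = 6) tumors carried GFP alone, and the mice of these last 3 groups ate doxycycline diet from day 4. The transduced lines were selected populations, and in comparisons with 4T1 the effects of transduction, selection and doxycycline cannot be told apart. Comparisons of CAT-ABP + alum with alum measured extracellular catalase (EC CAT), and 4T1-CAT alum against 4T1-control alum measured intracellular catalase (IC CAT).

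Each tumor held between 493086 and 9077683 counts (median 4827512) over both libraries, and levels are given as CPM, the counts divided by library size and expressed per 1e6 counts, scaled between tumors by the TMM method unless called pooled. The 7 libraries with under 0.25 of the median depth were kept. The first part of each library's index tag was read here as its sequencing pool, and the sample labels name no pool. By this reading all CT26 and 4T1 CAT-ABP + alum tumors were in 1 pair of sequencing pools. All 4T1-CAT and 4T1-control tumors were in the other pair, and the 4T1 alum tumors were divided between both. The sum of 6 epithelial markers lay between 40.9 and 85.5 CPM in CT26 tumors and between 1570 and 2890 CPM in the other 27, so CT26 tumors were low in the genes that usually define carcinoma cells, although none of these genes was at 0. The sum of 10 leukocyte and macrophage markers lay between 2050 and 3740 CPM in CT26 and between 838 and 3630 CPM in the 27 tumors of 4T1 origin, with group medians of 3030 and 3210 against 1660 to 2060 CPM. Of these markers 4 were higher in CT26 with alum and 7 with CAT-ABP + alum, which is 40.0% and 70.0% of the list. Of all genes, 42.4% and 45.5% were called in either direction. The sum of 6 neutrophil markers ran the other way, although single tumors overlapped. Its group medians were 114 and 88.5 CPM in CT26 against 141 to 226 CPM. Of these 6 markers 1 was higher and 1 lower with alum, and 2 higher and 1 lower with CAT-ABP + alum. Of 8 fibroblast markers 5 were lower and 1 higher in each comparison (median log2 fold change -0.91 and -0.84). The part of these cells in the differences between the lines was not tested. In whole tumors, fewer cells of a type and less RNA per cell cannot be told apart, and the tumors also hold host cells, whose copy of the locus is not that of the tumor line.

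*Mtap* (ENSMUSG00000062937) lies on the plus strand at 89137122 to 89181081 of chromosome 4 in GRCm38, and *Cdkn2a* (ENSMUSG00000044303) on the minus strand at 89274471 to 89294653, with 93389 bases between them. *Cdkn2b* (ENSMUSG00000073802) follows after another 11645 bases, on the minus strand at 89306299 to 89311039. The 250 bases before each RefSeq start are shown from GRCm38.p6 as a description of the starts. *Cdkn2a* has 2 of them, and whether their bases bear on the counts was not tested. The gene spans above are GENCODE's, and the RefSeq starts lie inside them, so that nearly the whole *Mtap* window falls within its gene span. Capitals mark the GC box GGGCGG, searched on both strands (its other strand reads CCGCCC).
*Mtap*, chr4:89137120-89137369, plus strand: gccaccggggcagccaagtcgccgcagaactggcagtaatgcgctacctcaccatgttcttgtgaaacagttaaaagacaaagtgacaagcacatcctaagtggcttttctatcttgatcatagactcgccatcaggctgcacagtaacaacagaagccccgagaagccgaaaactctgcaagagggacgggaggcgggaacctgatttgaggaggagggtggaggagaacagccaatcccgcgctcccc
*Cdkn2a*, Ink4a start, chr4:89282193-89282442, minus strand: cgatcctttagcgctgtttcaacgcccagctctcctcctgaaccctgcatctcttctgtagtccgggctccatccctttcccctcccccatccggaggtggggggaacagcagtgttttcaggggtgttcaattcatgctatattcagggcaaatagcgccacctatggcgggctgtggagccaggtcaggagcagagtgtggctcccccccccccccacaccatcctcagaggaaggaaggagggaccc
*Cdkn2a*, Arf start, chr4:89294620-89294869, minus strand: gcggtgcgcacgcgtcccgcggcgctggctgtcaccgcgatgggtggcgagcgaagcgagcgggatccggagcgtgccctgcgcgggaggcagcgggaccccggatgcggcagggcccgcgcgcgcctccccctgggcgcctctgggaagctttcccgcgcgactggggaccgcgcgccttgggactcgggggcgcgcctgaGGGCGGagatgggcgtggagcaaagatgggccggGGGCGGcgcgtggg
*Cdkn2b*, chr4:89311033-89311282, minus strand: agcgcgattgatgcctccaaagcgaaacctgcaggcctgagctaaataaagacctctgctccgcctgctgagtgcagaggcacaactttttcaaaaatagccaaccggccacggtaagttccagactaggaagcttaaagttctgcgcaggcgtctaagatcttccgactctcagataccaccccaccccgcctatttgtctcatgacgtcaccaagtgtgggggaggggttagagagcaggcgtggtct
The Arf window was 78.4% G or C, held 40 CpG dinucleotides and contained 2 GC boxes, whose first bases lay at -48 and -14 from the start. The Ink4a window held 7 CpG dinucleotides (60% G or C), the *Cdkn2b* window 12 (53.6%) and the *Mtap* window 11 (54.4%), and none of these 3 contained the motif. Of 32851 windows of the same length in the table, 32.7% contained the motif and the median number of CpG dinucleotides was 6. The match is a description of these letters only.

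*Cdkn2a* had a count of 0 in all 76 libraries and therefore in all 38 tumors. With 184890436 counts in all, a count of 0 allows a pooled level of up to 0.0162 CPM (3 counts), and up to 0.0492 CPM over the 11 CT26 tumors and 0.0242 CPM over the 27 tumors of 4T1 origin. Within a group, this limit lay between 0.0816 CPM in CT26 CAT-ABP + alum and 0.156 CPM in 4T1-control alum. These limits and all counting intervals cover counting error only. Both lines were at 0, so *Cdkn2a* gave no values to test, and any difference between groups was not detectable at this depth. Of 21951 protein-coding genes, 15.1% were also at 0 in every tumor. The last 500 bases of both *Cdkn2a* transcripts were compared, in 451 windows of 50 bases, with 141767 annotated transcripts, and 0 windows occurred in another gene. The 2 annotated transcripts, for p16Ink4a and p19Arf, share a run of 578 bases that reaches the 3′ end of one and lies 70 bases from that of the other, so 3′ counts would not separate them.

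*Cdkn2b* was counted at a very low level in both lines. Its 89 counts came from 35 of 76 libraries and 27 of 38 tumors, and no tumor held more than 11. In CT26 alum the 5 tumors held 0, 5, 0, 1 and 0 counts. In 4T1 alum they held 4, 3, 4, 1 and 0 counts, so the groups overlapped. The 4T1-CAT CAT-ABP + alum tumors held 3, 2, 1, 7 and 3 counts, which makes this the only group of the 7 in which every tumor had a count. The 4T1-CAT alum tumors held 4, 0, 6, 3 and 1. The lowest, median and highest counts were 0, 1 and 3 in CT26 CAT-ABP + alum, 0, 2.5 and 11 in 4T1 CAT-ABP + alum, and 0, 1.5 and 6 in 4T1-control alum.

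Pooled over tumors, *Cdkn2b* reached 0.23 CPM in CT26 (14 counts, 95% Poisson interval 0.126 to 0.385) and 0.605 CPM in the tumors of 4T1 origin (75 counts, 0.476 to 0.759). These intervals did not overlap, but they ignore the spread between tumors. The gene did not pass the filter on low counts. Fitted without that filter, its log2 fold change (CT26 minus 4T1) was -0.63 ± 1.02 (SE) with alum, adjusted p = 0.696, and -1.42 ± 0.81 with CAT-ABP + alum, adjusted p = 0.230, by the quasi-likelihood test of edgeR, Benjamini-Hochberg adjusted. In the 5 comparisons within a line or among 4T1-type tumors the unfiltered log2 fold changes lay between -0.70 and 0.21, with adjusted p of 0.862 or more in the same test. The order of mean log2 levels was 4T1 CAT-ABP + alum, 4T1-CAT alum, 4T1 alum, 4T1-CAT CAT-ABP + alum, 4T1-control alum, CT26 alum and CT26 CAT-ABP + alum. None of the 6 neighbouring steps in it passed a two-sided exact permutation test (adjusted p = 0.944 for each), and with a prior count of 0.5 the order within the 4T1 tumors changed.

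*Mtap* was counted in every library, with 67720 counts in all, and separated the lines. The 11 CT26 tumors lay between 94.3 and 151 CPM (median 137) and the 27 tumors of 4T1 origin between 265 and 535 CPM (median 456), with no overlap. In CT26 alum the values were 132, 94.3, 143, 140 and 137 CPM. In 4T1 alum they were 481, 504, 504, 480 and 412 CPM. The lowest, median and highest were 114, 137 and 151 CPM in CT26 CAT-ABP + alum and 369, 404 and 465 CPM in 4T1 CAT-ABP + alum. All CT26 values were below all 4T1 values under both treatments.

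**Figure D1:**
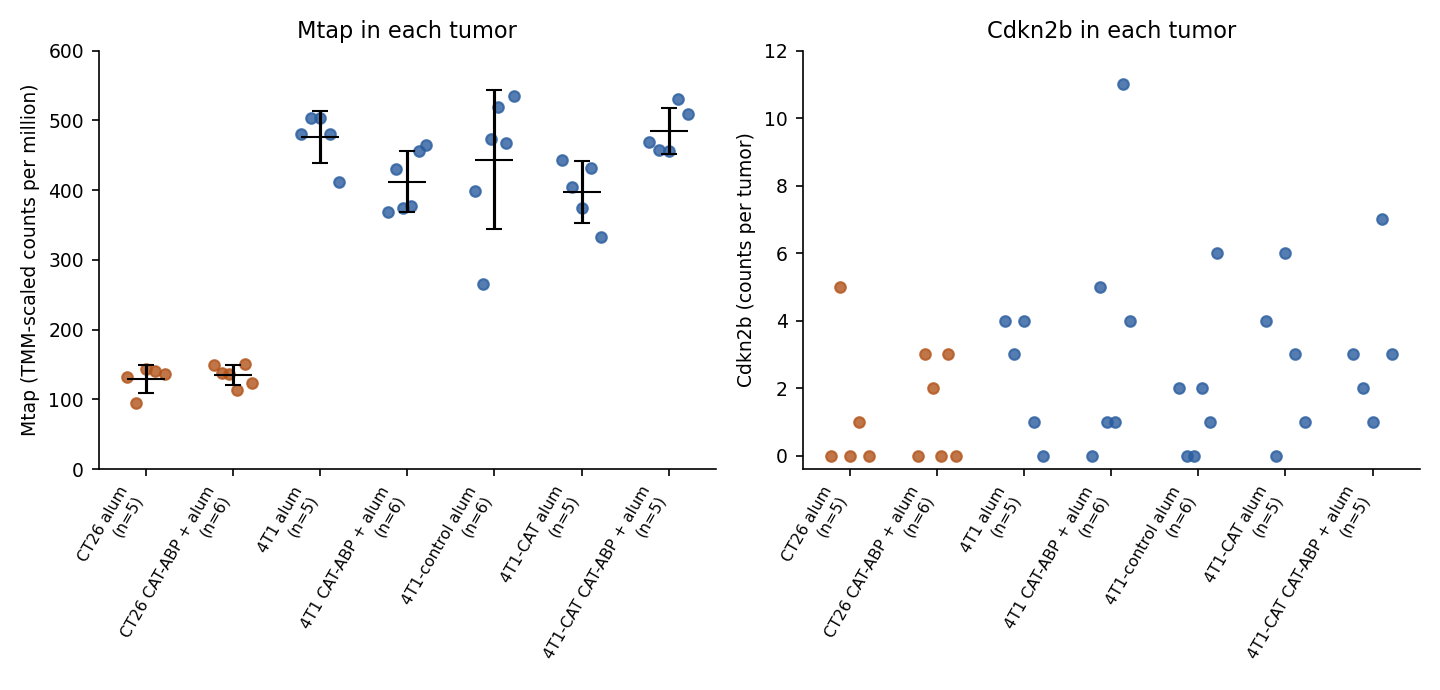
Each point is 1 tumor. Left, *Mtap* in TMM-scaled CPM, with group means and SD as bars; right, *Cdkn2b* as counts per tumor (both libraries summed). CT26 groups (orange) lie between 94.3 and 151 CPM for *Mtap* and the groups of 4T1 origin (blue) between 265 and 535 CPM, whereas for *Cdkn2b* the groups overlap between 0 and 11 counts.

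*Mtap* was lower in CT26 alum (129 ± 19.9 CPM, SD, n = 5) than in 4T1 alum (476 ± 37.6, n = 5), a 3.68-fold difference. Its log2 fold change was -1.88 ± 0.15 (SE), with an adjusted p of 1.01e-07 by the quasi-likelihood test of edgeR, Benjamini-Hochberg adjusted. With CAT-ABP + alum, in other tumors, it was 135 ± 14.7 CPM (n = 6) in CT26 and 412 ± 43.6 (n = 6) in 4T1, a 3.12-fold difference. The log2 fold change was -1.64 ± 0.13 with an adjusted p of 7.83e-09 in the same test. With the sequencing pool as a term the value with alum was -1.93, and the CAT-ABP + alum tumors of both lines shared their pools. With near-absent set at under 0.5 CPM pooled, *Mtap* was not near-absent in CT26 tumors. It stood at 122 CPM pooled there (95% interval 119 to 125) and at 486 CPM in the tumors of 4T1 origin. These are levels of whole tumors with host cells, so they cannot show what the CT26 cells themselves hold. The part of host cells was not tested.

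The lines differed widely, and *Mtap* is read against that. In the alum comparison 42.4% of the 12817 genes tested passed the threshold, and in the CAT-ABP + alum comparison 45.5% of 13016. The CPM of the groups did not overlap for 29.9% and 22.3% of genes. With alum 4.45% of the genes tested were lower in CT26 by at least as much as *Mtap*, and with CAT-ABP + alum 4.77%. Of the genes at 5 CPM or more in the tumors of 4T1 origin, 1.04% were near-absent in CT26, and of those at 5 CPM or more in CT26, 0.626% were near-absent in the other line. No member of the locus belonged to either class, since *Cdkn2a* and *Cdkn2b* stayed under 5 CPM in both lines. By the limit of 0.5 CPM pooled alone, *Cdkn2a* was near-absent in both lines, at 0 counts. *Cdkn2b* was near-absent in CT26 (0.23 CPM) but not in the tumors of 4T1 origin (0.605 CPM), where its interval of 0.476 to 0.759 included the limit.

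Catalase did not change *Mtap* past the threshold of the edgeR test in any comparison. In CT26 the log2 fold change with CAT-ABP was 0.06 ± 0.13 (adjusted p = 1.00), and in 4T1 it was -0.21 ± 0.13 (adjusted p = 0.999), by the quasi-likelihood test of edgeR, Benjamini-Hochberg adjusted. In 4T1-CAT the CAT-ABP + alum tumors held 469, 458, 456, 531 and 509 CPM. The 4T1-CAT alum tumors held 443, 404, 375, 432 and 333 CPM, and the groups did not overlap, as was the case for 2.93% of the 13093 genes tested. The log2 fold change there was 0.29 ± 0.11, with an adjusted p of 0.252 in the same test and of 0.0525 with DESeq2. A two-sided exact permutation test of *Mtap* alone gave p = 0.00794, the smallest that 5 against 5 tumors can give (adjusted p = 0.0185 over the 7 comparisons). The same exact test gave p = 0.0433 for EC CAT in 4T1, where *Mtap* was lower with CAT-ABP (412 ± 43.6 CPM, n = 6) than without (476 ± 37.6, n = 5), with an adjusted p of 0.0758, and p of 0.511 or more in CT26, for IC CAT and for 4T1-control against 4T1. The CAT-ABP + alum tumors of 4T1-CAT held between 4505862 and 8709866 counts and the alum tumors between 2236549 and 6862530, and the part of depth in the difference was not tested. Whether the *Mtap* effects in 4T1 and 4T1-CAT, which had opposite signs, differ from each other was not tested.

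Intracellular catalase and the transduced control gave no called change either. *Mtap* was at 397 ± 44.6 CPM in 4T1-CAT alum (n = 5) and 444 ± 99.4 in 4T1-control alum (n = 6), a log2 fold change of -0.17 ± 0.16 with adjusted p = 1.00 by edgeR's quasi-likelihood test. The lowest, median and highest values in 4T1-control alum were 265, 471 and 535 CPM, and the lowest came from the tumor of least depth in the study. Against 4T1 alum, 4T1-control alum gave -0.10 ± 0.16 (adjusted p = 0.892 in the same test). The threshold called 0% of genes in each of these 5 comparisons with edgeR. At an unadjusted p under 0.05, edgeR gave 311 genes for EC CAT in CT26 (2.42% of those tested), 377 in 4T1 (2.88%) and 2000 in 4T1-CAT (15.3%). It gave 637 for IC CAT (5.08%) and 1307 for 4T1-control against 4T1 (10.5%). In the same order, DESeq2 called 1, 0, 260, 0 and 28 at the adjusted threshold.

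Ordered by mean log2 level, *Mtap* was highest in 4T1-CAT CAT-ABP + alum, followed by 4T1 alum, 4T1-control alum, 4T1 CAT-ABP + alum, 4T1-CAT alum, CT26 CAT-ABP + alum and CT26 alum. Of the 6 steps between neighbours only that from 4T1-CAT alum to CT26 CAT-ABP + alum passed, at 1.55 on the log2 scale (two-sided exact permutation test, p = 0.00433, adjusted p = 0.0260 over the steps). The 4 steps among the tumors of 4T1 origin were between 0.03 and 0.14, and the step between the CT26 groups was 0.08.

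The genes beside *Mtap* were examined because deletions often extend beyond a single gene. Within 1 Mb of the 3 genes the annotation holds 72 genes, of which 38 had any count and 12 reached 1 CPM pooled in either line, *Mtap* among them. *Wincr1*, a long noncoding RNA that starts 0.087 Mb before *Mtap*, was at 0.349 ± 0.628 CPM in CT26 alum and 4.24 ± 0.552 CPM in 4T1 alum (n = 5 each). Its log2 fold change was -3.59 with alum (adjusted p = 0.000375) and -4.08 with CAT-ABP + alum (adjusted p = 8.39e-06), by the quasi-likelihood test of edgeR, Benjamini-Hochberg adjusted. With each tumor left out these values ranged from -5.68, without CT26 alum replicate 5, to -3.09, and from -4.80 to -3.78, and the calls were kept. *Gm12602*, a noncoding transcript that starts 8895 bases before the *Mtap* start and runs away from it on the minus strand, was at 0.912 ± 0.520 and 3.39 ± 1.43 CPM in the same groups. Its log2 fold change was -1.66 with alum (adjusted p = 0.00618) and -2.85 with CAT-ABP + alum (adjusted p = 2.84e-05) in the same test. The counting setting for strand is not given in the sources used here, so reads of overlapping genes on opposite strands may not be separated.

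Of the genes farther away within the window, a noncoding gene was lower in CT26 and the protein-coding genes did not pass. *Gm49890*, a long noncoding RNA gene whose span includes that of the microRNA gene *Mir31*, was tested with CAT-ABP + alum only, where its log2 fold change was -2.70 (adjusted p = 0.000497, same edgeR test). *Klhl9*, which encodes an adaptor of a ubiquitin ligase, had log2 fold changes of -0.34 with alum and -0.36 with CAT-ABP + alum. *Hacd4*, a fatty acid elongation enzyme gene, had 0.21 and 0.17, and *Focad*, a gene for a focal adhesion protein, had -0.01 and 0.11. None of these 3 passed the threshold in either comparison (adjusted p between 0.0677 and 0.968), although *Klhl9* with CAT-ABP + alum passed without CT26 CAT-ABP + alum replicate 1 (-0.43, adjusted p = 0.0448, edgeR). The processed pseudogene *Mrpl48-ps* was higher in CT26 with alum (log2 fold change 1.26, adjusted p = 0.0399) and had 0.51 with CAT-ABP + alum (adjusted p = 0.333, same test). The first of these calls was lost in 11 of 17 alternatives, DESeq2 among them (adjusted p = 0.0548), and its reads may be shared with its parent gene.

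The other 4 noncoding neighbours were too low for the test between the lines. Pooled levels in CT26 and in the tumors of 4T1 origin were 0.18 and 1.29 CPM for *Gm49891*, 1.43 and 0.274 CPM for *Gm26525*, and 1.12 and 0.742 CPM for *Gm26867*. *Gm12606*, whose minus-strand gene starts 1067 bases beyond the 3′ end of *Cdkn2a*, was at 0.787 CPM in CT26 (95% interval 0.58 to 1.04) and 1.74 CPM in the tumors of 4T1 origin (1.52 to 1.99). Counts were therefore present on both sides of *Cdkn2a* in tumors of both lines. In CT26 tumors these nearest genes held 48 counts (*Gm12606*) and 14 counts (*Cdkn2b*). Which cells of the whole tumors supplied them was not tested. On the far side of *Cdkn2b* no gene within 5 Mb of *Mtap* was tested.

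**Figure D2:**
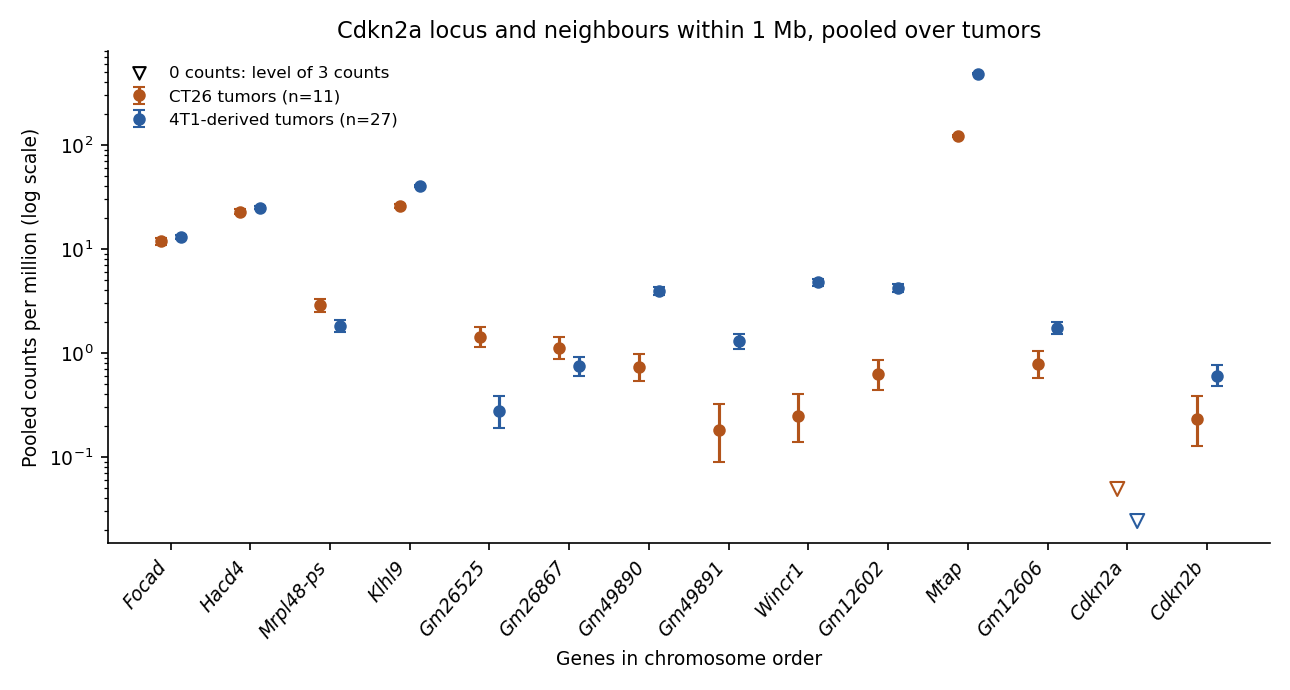
Pooled CPM on a log axis for the 3 locus genes and the 11 neighbours within 1 Mb at 1 CPM or more in either line, in chromosome order, for 11 CT26 tumors (orange) and 27 tumors of 4T1 origin (blue). Bars are 95% Poisson intervals, and open triangles mark the level of 3 counts for *Cdkn2a*, which had 0 counts. *Mtap* stands at 122 and 486 CPM.

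**Figure D3:**
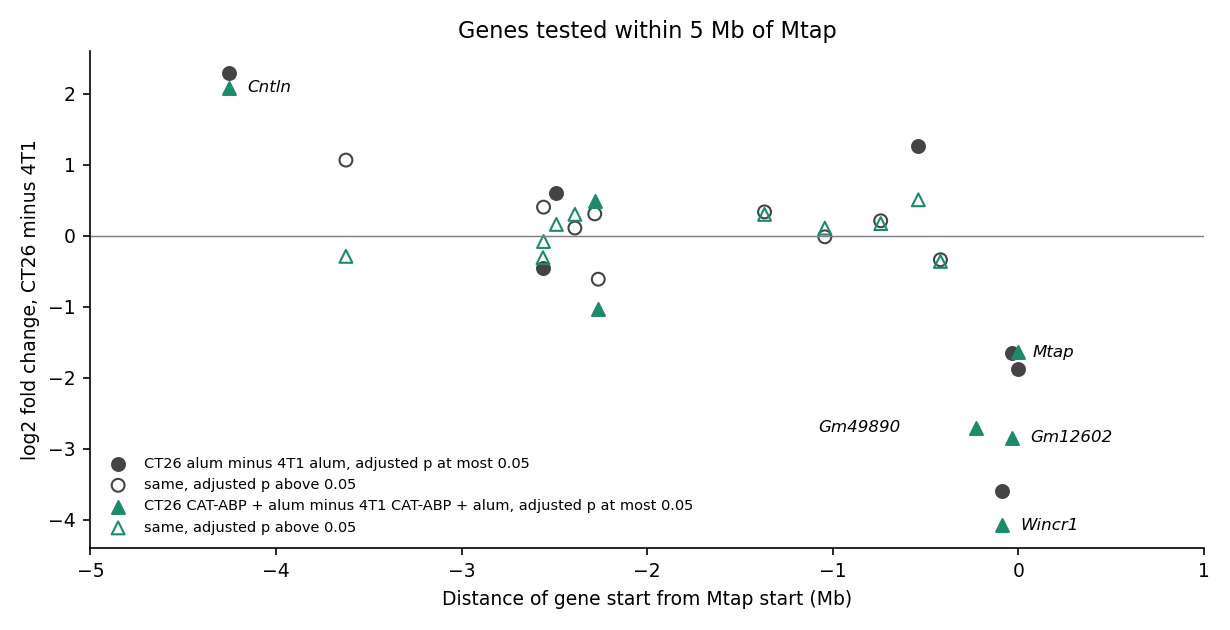
log2 fold change, CT26 minus 4T1, of each gene tested, for alum (circles) and CAT-ABP + alum (triangles). The horizontal axis is the distance in Mb of the lowest coordinate of each gene, on either strand, from the *Mtap* start. Filled symbols have an adjusted p of 0.05 or less (edgeR). *Mtap*, *Wincr1*, *Gm12602* and *Gm49890* lie between -4.08 and -1.64, and genes from *Klhl9* to *Mllt3* between -0.36 and 1.26. Genes farther away lie between -1.03 (*Acer2*, CAT-ABP + alum) and 2.29 (*Cntln*, alum). Of these, *Cntln* passed in both comparisons, *Rraga* and *Plin2* with alum, and *Rps6* and *Acer2* with CAT-ABP + alum.

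Of the pathway that p16Ink4a and p15Ink4b act on, 20 of 21 listed genes were tested, and 8 were higher and 3 lower in CT26 with alum, as many as with CAT-ABP + alum. That is 55.0% of the list against 42.4% and 45.5% of all genes, and the list's median log2 fold change was 0.32 and 0.38 against 0.02 and -0.02 for all genes. The remaining INK4 genes moved in opposite directions. *Cdkn2c* (p18Ink4c) was at 49.5 ± 10.5 CPM in CT26 alum and 142 ± 26.7 in 4T1 alum, with log2 fold changes of -1.51 with alum and -1.07 with CAT-ABP + alum. *Cdkn2d* (p19Ink4d) was at 75.2 ± 24.2 and 38.2 ± 5.48 CPM, with 0.99 and 0.96. Both passed in both comparisons (adjusted p between 8.91e-07 and 0.000771, edgeR's quasi-likelihood test).

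Among inhibitors of the other cyclin kinases, *Cdkn1a* (p21, a p53 target) was higher in CT26 (1.73 with either treatment) and *Cdkn1b* (p27) lower (-0.76 and -1.18), the first of its calls lost in 2 of 20 alternatives. The cyclin genes *Ccnd2* (1.72 and 1.42) and *Ccne1* (1.45 and 1.24) were higher. *Ccnd1*, like *Ccnd2* a cyclin D gene, had -0.20 with alum (adjusted p = 0.273) and -0.45 with CAT-ABP + alum (adjusted p = 0.00548, edgeR). *E2f5*, a repressor E2F, was lower with alum only (-1.09, and -0.29 with adjusted p = 0.207 with CAT-ABP + alum, edgeR); the difference between these values was not tested.

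Of 7 genes around p19Arf and p53, 2 were higher with alum, and 2 were higher and 1 lower with CAT-ABP + alum, which is 28.6% and 42.9% of the list against 42.4% and 45.5% of all genes. *Trp53* itself was at 34.7 ± 8.81 CPM in CT26 alum and 14.3 ± 2.95 in 4T1 alum (log2 fold change 1.28, and 1.44 with CAT-ABP + alum). *Mdm2*, the ubiquitin ligase that p19Arf inhibits and p53 induces, had 0.68 and 0.65, each lost in 1 alternative (the sequencing pool as a term, and technical replicate 2 alone). *Cdkn2aip*, which encodes a protein that binds p19Arf, had -0.53 with alum (adjusted p = 0.0770) and was lower with CAT-ABP + alum (-0.73, adjusted p = 0.0101, edgeR). With alum it passed without 4T1 alum replicate 3 (-0.63) or 5 (-0.63) and in 1 model over all groups, and with CAT-ABP + alum it did not pass in technical replicate 2 alone. The list's median was 0.13 with alum and -0.07 with CAT-ABP + alum.

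Of 30 listed genes known to regulate the locus 26 were tested, and 2 were higher and 12 lower with alum, and 3 higher and 10 lower with CAT-ABP + alum, with list medians of -0.44 and -0.28. That is 53.8% and 50% of the list called, against 42.4% and 45.5% of all genes, of which 21.1% and 23.7% were called lower, and no test compared the list with other genes. Of the TGF-beta arm, which induces *Cdkn2b*, the receptor gene *Tgfbr1* was at 18.2 ± 2.44 CPM in CT26 alum and 53.2 ± 8.38 in 4T1 alum (log2 fold change -1.54, and -1.47 with CAT-ABP + alum), and the ligand gene *Tgfb1* had -0.62 and -0.72, calls that were lost in 12 of 20 and 4 of 21 alternatives, including 7 and 3 of those that left out 1 tumor. *Id1*, whose product antagonizes the activation of *Cdkn2a* by Ets factors, had -1.27 and -0.88, the second lost in technical replicate 2 alone.

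Polycomb genes, whose complexes repress the locus, went both ways. *Pcgf2* was lower in both comparisons (-0.74 and -0.87) and *Cbx7* higher (1.26 and 1.28). With alum the *Pcgf2* call was lost in technical replicate 1 alone and that of *Cbx7* in technical replicate 2 alone (0.17), and with CAT-ABP + alum that of *Cbx7* was lost in technical replicate 1 alone. *Cbx2* (-1.36), *Kdm2b* (-1.19) and *Ezh1* (0.53) passed with alum, and had -0.23, -0.26 and 0.20 with CAT-ABP + alum, where their adjusted p lay between 0.371 and 0.616 (edgeR). The *Kdm2b* call was lost without 4T1 alum replicate 2 (-0.95, adjusted p = 0.0577, edgeR), and the *Ezh1* call in 4 of 20 alternatives. *Bmi1* (0.39) and *Eed* (0.50) were higher with CAT-ABP + alum, and had 0.07 and 0.24 with alum (adjusted p = 0.747 and 0.338, edgeR). The *Bmi1* call was lost in 3 of 21 alternatives, and the *Eed* call in technical replicate 2 alone (0.22).

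**Figure D4:**
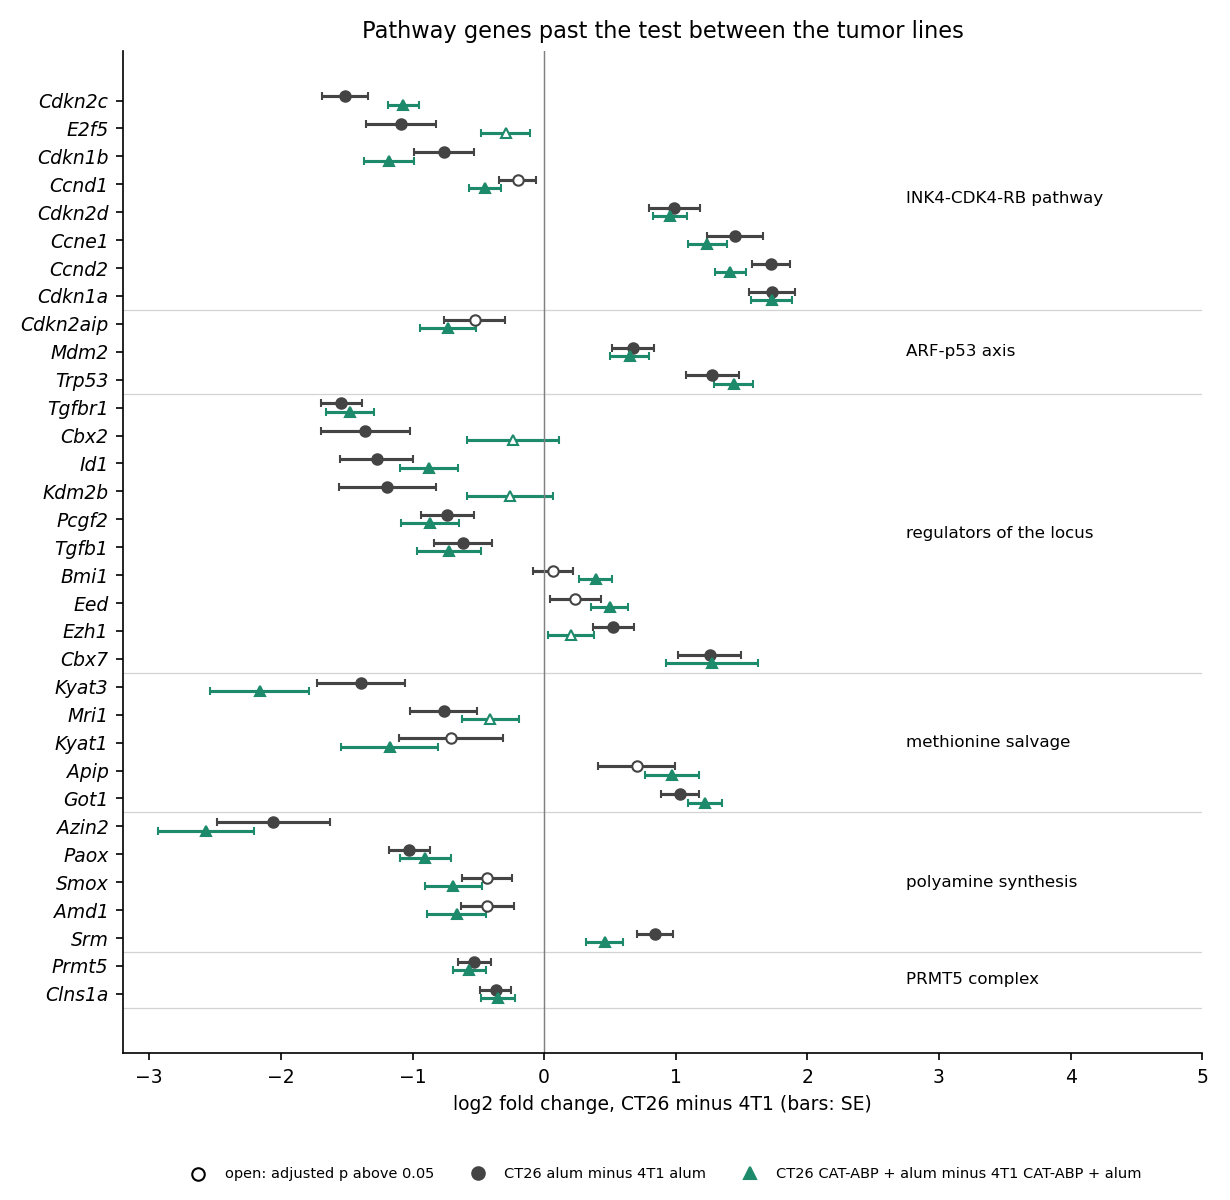
log2 fold change, CT26 minus 4T1, with SE bars, of the genes of 6 lists that passed the threshold between the lines, up to 4 per list and direction in each comparison. Grey circles are alum and green triangles CAT-ABP + alum; open symbols have an adjusted p above 0.05 (edgeR). *Azin2* is lowest, at -2.06 and -2.57, and *Cdkn1a* highest, at 1.73 in both.

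The pathway that MTAP feeds returns methylthioadenosine to methionine. Of 10 genes of methionine salvage and the methionine cycle, 1 was higher and 2 lower with alum, and 2 higher and 2 lower with CAT-ABP + alum, which is 30.0% and 40.0% of the list against 42.4% and 45.5% of all genes. *Mri1*, which takes the product of MTAP, was lower with alum (-0.76, and -0.41 with adjusted p = 0.134 with CAT-ABP + alum, edgeR). That call was lost in 4 of 20 alternatives, among them without CT26 alum replicate 3 (-0.69) and without 4T1 alum replicate 3 (-0.68). *Apip*, the next enzyme, had 0.70 with alum (adjusted p = 0.0670) and was higher with CAT-ABP + alum (0.97, adjusted p = 0.000844, edgeR). With alum it passed in 6 alternatives, among them without CT26 alum replicate 2 (0.89) and without 4T1 alum replicate 5 (0.84). Of the transaminases that can close the pathway, *Got1* was higher (1.03 and 1.22), *Kyat3* lower (-1.39 and -2.16), and *Kyat1* lower with CAT-ABP + alum (-1.17, and -0.71 with adjusted p = 0.161 with alum, edgeR), a call lost in technical replicate 1 alone.

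Polyamine synthesis is the source of methylthioadenosine. The 11 listed genes cover synthesis but also polyamine oxidases and antizyme genes, so their count does not measure synthesis. Of them 1 was higher and 2 lower with alum, and 1 higher and 5 lower with CAT-ABP + alum. That is 27.3% and 54.5% of the list against 42.4% and 45.5% of all genes. *Srm*, spermidine synthase, was higher (0.85 and 0.46), and *Paox*, polyamine oxidase (-1.02 and -0.90), and *Azin2*, an antizyme inhibitor (-2.06 and -2.57), were lower. *Smox*, spermine oxidase, and *Amd1*, which makes the aminopropyl donor, passed with CAT-ABP + alum (-0.69 and -0.66) and had -0.43 each with alum (adjusted p = 0.0758 and 0.102, edgeR). With CAT-ABP + alum the *Smox* call was lost in 3 of 21 alternatives, including without 4T1 CAT-ABP + alum replicate 2 (-0.52) or 5 (-0.55), and the *Amd1* call in 4 of 21, including without CT26 CAT-ABP + alum replicate 4 (-0.58) and without 4T1 CAT-ABP + alum replicate 1 (-0.58) or 2 (-0.56). With alum *Smox* passed without CT26 alum replicate 1 (-0.54) and *Amd1* without 4T1 alum replicate 1 (-0.57). The *Srm* call with CAT-ABP + alum was lost in technical replicate 1 alone. Of 5 genes of the PRMT5 complex, *Prmt5* (-0.53 and -0.57) and its partner *Clns1a* (-0.37 and -0.35) were lower in both comparisons, and the other 3 did not pass. That is 40.0% of the list in each, against 42.4% and 45.5% of all genes. The *Clns1a* calls were lost in 3 of 20 and 13 of 21 alternatives, 9 of the latter leaving out 1 tumor, and the *Prmt5* call with alum was lost in technical replicate 1 alone. With edgeR, 0 of the 84 genes of these 6 lists passed in any of the 5 comparisons of catalase or of the transduced control. Of their 393 tests, 24 (6.11%) had an unadjusted p under 0.05 with edgeR. Among all genes tested, this share lay between 2.42% (EC CAT in CT26) and 15.3% (EC CAT in 4T1-CAT) in these 5 comparisons. DESeq2 called 2, *Ccnd1* for EC CAT in 4T1-CAT and *Oaz1*, an ornithine decarboxylase antizyme gene, for 4T1-control against 4T1. Both are named here after their values were seen.

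Within CT26, the genes whose level ran most closely with *Mtap* over the 11 tumors were *Fmnl3* (Spearman rho 0.96), *Gm28959* (0.96), *Ncaph* (0.95), *Hgh1* (0.94) and *Abcb8* (0.92), among 10510 genes with a median rho of 0.03. Within the 27 tumors of 4T1 origin they were *Eef1a1* (0.90), *Ddx5* (0.85), *H1f0* (0.84), *Arf4* (0.84) and *Igfbp4* (0.84), among 10568 genes with a median of 0.07. No gene was in both sets. Depth differed between the tumors of each set, and those of 4T1 origin came from both pairs of sequencing pools. The part of either was not tested, and the values are descriptions.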

How the data were processed

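The authors ran the Smart-seq2 pipeline on Terra and deposited estimated counts per gene and library, not normalized (39.7% of non-zero values were not whole). Pipeline version, strand setting and any collapse of molecular identifiers are not given in the sources used here. Some technical libraries were excluded by the authors for low depth without being named, so all 76 were kept. Index tags were read from the deposited library sheet, and the part before the first hyphen was taken as the sequencing pool.

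Counts were summed over the 2 technical libraries of a tumor, rounded, filtered with filterByExpr, TMM-scaled and tested with edgeR 4.0.16 (R 4.3.3) by its quasi-likelihood test, with only the 2 groups compared in the model and Benjamini-Hochberg adjustment over all genes tested at 0.05. Log2 CPM used a prior count of 2. *Cdkn2a* and *Cdkn2b* failed the filter in all 7 comparisons and are described by counts. Pooled CPM divided rounded counts by total counts, with 95% Poisson intervals. Exact permutation tests, two-sided, compared single values (SciPy 1.17.1). Replicates are separate tumors, and no label pairs them. Positions came from GENCODE M21 on GRCm38, which placed 55450 of 55536 gene IDs. Alternatives were DESeq2 1.42.0, RLE size factors, no filter, a minimum mean of 20 counts, a joint model of the 7 groups, a replicate block, single technical replicates, low-depth libraries left out, the sequencing pool as a term, unrounded counts, a prior count of 0.5 and each tumor left out. The fits were tested on simulated data. The sheet gives 1 index tag to technical library 2 of 4T1-CAT alum replicates 2 and 3, but only 0.275% of 11282 genes had the same count in both.

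The members and gene lists were chosen with earlier results of these data known. Named were all members, neighbours within 1 Mb at 1 CPM or more pooled, up to 4 genes per list and direction past the threshold in a comparison, and the 5 genes most like *Mtap* among those at a mean of 5 CPM or more in each line.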

Additional observations from a re-analysis of the deposited data

Results flagged for a closer look

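In 3 of the 14 groups of tumors examined for *Cdkn2b* and *Mtap*, 1 tumor lay far from the others by Dixon's test. Its chance rate of about 1 in 20 groups holds for normally distributed values. The low and tied counts of *Cdkn2b* are not such values, so the rate does not apply to them. In CT26 alum, replicate 2 was far in both genes: *Cdkn2b* was at 2.44 CPM, from 5 counts, with the next tumor at 0.294 CPM, and *Mtap* was at 94.3 CPM with the next tumor at 132 CPM. That tumor had the lowest depth of its group, 1972941 counts. In 4T1 alum, replicate 5 was at 412 CPM for *Mtap*, and the next tumor was at 480 CPM. *Mtap* in both tumors was still on the side of the other tumors of its line.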

How the results depend on the processing

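*Mtap* stayed lower in CT26, past the threshold, in every alternative run for both line comparisons, with log2 fold changes between -1.98 and -1.83 with alum and between -1.70 and -1.55 with CAT-ABP + alum, and between -1.94 and -1.79 and between -1.68 and -1.58 with each tumor left out. In no alternative fit did catalase change *Mtap* past the threshold. The exact permutation test of *Mtap* alone gave an adjusted p of 0.0185 over the 7 comparisons for EC CAT in 4T1-CAT. *Wincr1* and *Gm12602* kept both calls in every alternative that tested them. Values near 0 changed sign: *Mtap* for 4T1-control against 4T1 was 0.067 in technical replicate 2 alone, and for EC CAT in CT26 it ranged from -0.024 to 0.113 with each tumor left out, the first without CT26 alum replicate 2. With alum *Focad* was 0.19 in technical replicate 2 alone, 0.0 without low-depth libraries and -0.189 to 0.078 with each tumor left out. With CAT-ABP + alum, *Focad* ranged from -0.013 to 0.217 and *Kdm2b* from -0.402 to 0.061 with each tumor left out, and in technical replicate 2 alone *Hacd4* was -0.161 and *Ezh1* -0.068. *Bmi1* with alum was -0.049 in technical replicate 1 alone, -0.118 with the sequencing pool as a term and -0.005 to 0.135 with each tumor left out.

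Counts of genes called moved more. In technical replicate 2 alone the line comparisons called 2849 and 3559 genes. DESeq2 called 1 gene for EC CAT in CT26, 260 in 4T1-CAT and 28 for 4T1-control against 4T1. Without a filter 1, 16, 47, 131 and 130 genes were called for EC CAT in CT26, 4T1 and 4T1-CAT, IC CAT and 4T1-control against 4T1. That last comparison called 10 genes in 1 model over all groups, 14 without low-depth libraries and 0 to 6 with a tumor left out, and EC CAT in 4T1-CAT and IC CAT called 0 to 1 with a tumor left out. The cause was not tested. Deviations of same-numbered tumors from their group means had correlations from -0.29 to 0.33. Differently numbered tumors were not compared in this way, so a weak pairing by number cannot be told from none. With the replicate block EC CAT in 4T1-CAT called 3 genes, and *Mtap* was -1.89 and -1.64 between the lines. The sequencing pool could be fitted as a term in 3 of the 7 comparisons, CT26 against 4T1 with alum, EC CAT in 4T1 and 4T1-control against 4T1, and gave no value in the others. Depth limits *Cdkn2a*, which had no counts to test, and *Cdkn2b*, whose 0 to 11 counts per tumor were tested only without the filter and gave wide errors.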
